A study of Homo sapiens with 96 samples.

Results

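The genes described here are those of the urokinase system: PLAU, PLAUR, PLAT, SERPINE2 and SERPINB2. They were taken as every probe set of the deposited table that the platform annotation assigns to one of these symbols. This gave 6 probe sets of 4 genes, among 22406 probe sets that are not array controls and 11940 named genes. PLAUR had 3 probe sets and PLAU, PLAT and SERPINE2 had 1 each. SERPINB2, the inhibitor PAI-2, had no annotated probe set and was not analysed here.

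The RNA came from MDA-MB-231 cells, an established human breast cancer line with mesenchymal features, on 96 Affymetrix arrays. Cells at 80% confluence spent 24 h in low serum and were then pre-treated for 30 min with U0126, an inhibitor of the kinase MEK, at 10 uM or with its solvent DMSO. EGF was added at 0 h at 10 ng/ml. After 0 h the arms were untreated control, EGF alone, DMSO followed by EGF (DMSO-EGF) and U0126 followed by EGF (U0126), each at 0.5, 1, 4, 8, 12, 24 and 48 h. At 0 h the arms were control, DMSO and U0126, before any EGF. Array titles name 3 series of 32 arrays: 2D03 and 2D04 from 2D culture, and 3D04 from 3D culture. Each series held 1 array per arm and time, and 2 control arrays at 0 h. The labels do not say whether repeats are separate cultures, so p-values measure only the spread between these samples, which may be technical. In 3D, neighbouring times served as repeats, so its errors also hold change over time. All cells were 1 line, U0126 was the only inhibitor, and 3D culture was a single series.

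Urokinase (PLAU) is a secreted serine protease that cuts plasminogen into plasmin, the protease that dissolves fibrin and degrades matrix around invading cells. Its receptor uPAR (PLAUR), anchored to the membrane by a lipid tail, holds urokinase at the cell surface and signals together with integrins. Tissue plasminogen activator (PLAT) makes plasmin mainly on fibrin. The serpin protease nexin-1 (SERPINE2) blocks thrombin, urokinase and tissue plasminogen activator, and its complexes are taken up by LDL-receptor family members. In breast cancer, urokinase is an established prognostic marker, and PLAU and PLAUR are well-known targets of the ERK pathway, acting in part through AP-1.

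Values are presumed to be log2 signals, centred for each probe set on a reference that is not stated. Single values ran from -5 to 5.7 over all arrays, and array medians from -0.06 to 0.03. A value therefore places an array against other arrays for the same probe set only, and neither the level of a gene nor the presence of a cell type marker can be read from it. Windows of time were early (0.5 and 1 h), middle (4, 8 and 12 h) and late (24 and 48 h). The windows held 4, 6 and 4 arrays of an arm in 2D culture and 2, 3 and 2 in 3D culture. A probe set was called changed at a limma p below 0.05 after Benjamini-Hochberg adjustment over all 22406 probe sets. Errors are standard errors (SE) of the fit, and fold changes assume the log2 scale.

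In the libraries as a whole, probe sets of known MEK-ERK output genes (DUSP6, SPRY4, EGR1 and FOSL1) were lower with U0126: 7 of 8 were called lower in the 2D middle window and 7 of 8 in the 3D late window. Over all probe sets 4.68% and 13.6% were called lower in these windows. Over 94 arrays the 5' minus 3' difference of the actin control, a sign of RNA quality, lay between -0.36 and 0.31. It was -1.26 and -1.08 on the remaining pair, the U0126 arrays of series 2D03 at 8 and 12 h. Leaving out that pair left 4 of the 6 urokinase system probe sets called in the 2D middle window and 5 in the 2D late window, as with all arrays.

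PLAU was lower in the U0126 arm than in every other arm from 4 h to 48 h, in both cultures. In the early window its difference between U0126 and DMSO-EGF was -0.11 in 2D (SE 0.31) and -0.45 in 3D (SE 0.17), and neither was called (limma adjusted p = 1 for both). In the middle window PLAU fell by 1.53 with U0126 in 2D (SE 0.25, 2.88-fold lower, limma adjusted p = 7.2e-05) and by 1.37 in 3D (SE 0.14, 2.59-fold lower, limma adjusted p = 3.1e-07). In the late window it was still lower, 2.31-fold in 2D (-1.21, SE 0.31, limma adjusted p = 0.0064) and 2.77-fold in 3D (-1.47, SE 0.17, limma adjusted p = 4.2e-07).

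The arrays behind this show a step between 1 and 4 h. In series 2D03 the PLAU value with U0126 was 2.20 at 0.5 h, 2.20 at 1 h, 1.57 at 4 h, 0.81 at 8 h, 0.82 at 12 h, 0.99 at 24 h and 0.67 at 48 h. With DMSO-EGF it was 2.45, 2.36, 3.20, 2.22, 2.31, 2.03 and 2.12 at the same times. The widest gap in this series was thus at 4 h, where the DMSO-EGF array was the highest of all PLAU arrays. In series 2D04 the U0126 arrays read 1.33, 1.57, 0.63, 0.74, 0.66, 0.52 and 1.00 for PLAU, and the DMSO-EGF arrays read 1.32, 1.59, 2.14, 2.18, 2.33, 1.75 and 2.12. In series 3D04 they read 2.27, 2.17, 1.39, 1.46, 1.39, 1.12 and 0.37 with U0126, and 2.70, 2.63, 2.97, 2.81, 2.58, 2.33 and 2.10 with DMSO-EGF. Each series started from its own level, with control means at 0 h of 2.20, 1.30 and 2.78 in series 2D03, 2D04 and 3D04.

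From 4 h on, the 5 U0126 arrays of a series did not overlap the 15 arrays of its other arms for PLAU in any series. In series 2D03 PLAU lay between 0.67 and 1.57 with U0126 and between 1.94 and 3.20 in the other arms. In series 2D04 the ranges were 0.52 to 1.00 and 1.67 to 2.35, and in series 3D04 they were 0.37 to 1.46 and 2.10 to 2.97. Such a gap below the other arms was present in 1.2% of all probe sets in series 2D03, 1.33% in series 2D04 and 2.37% in series 3D04.

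**Figure D1:**
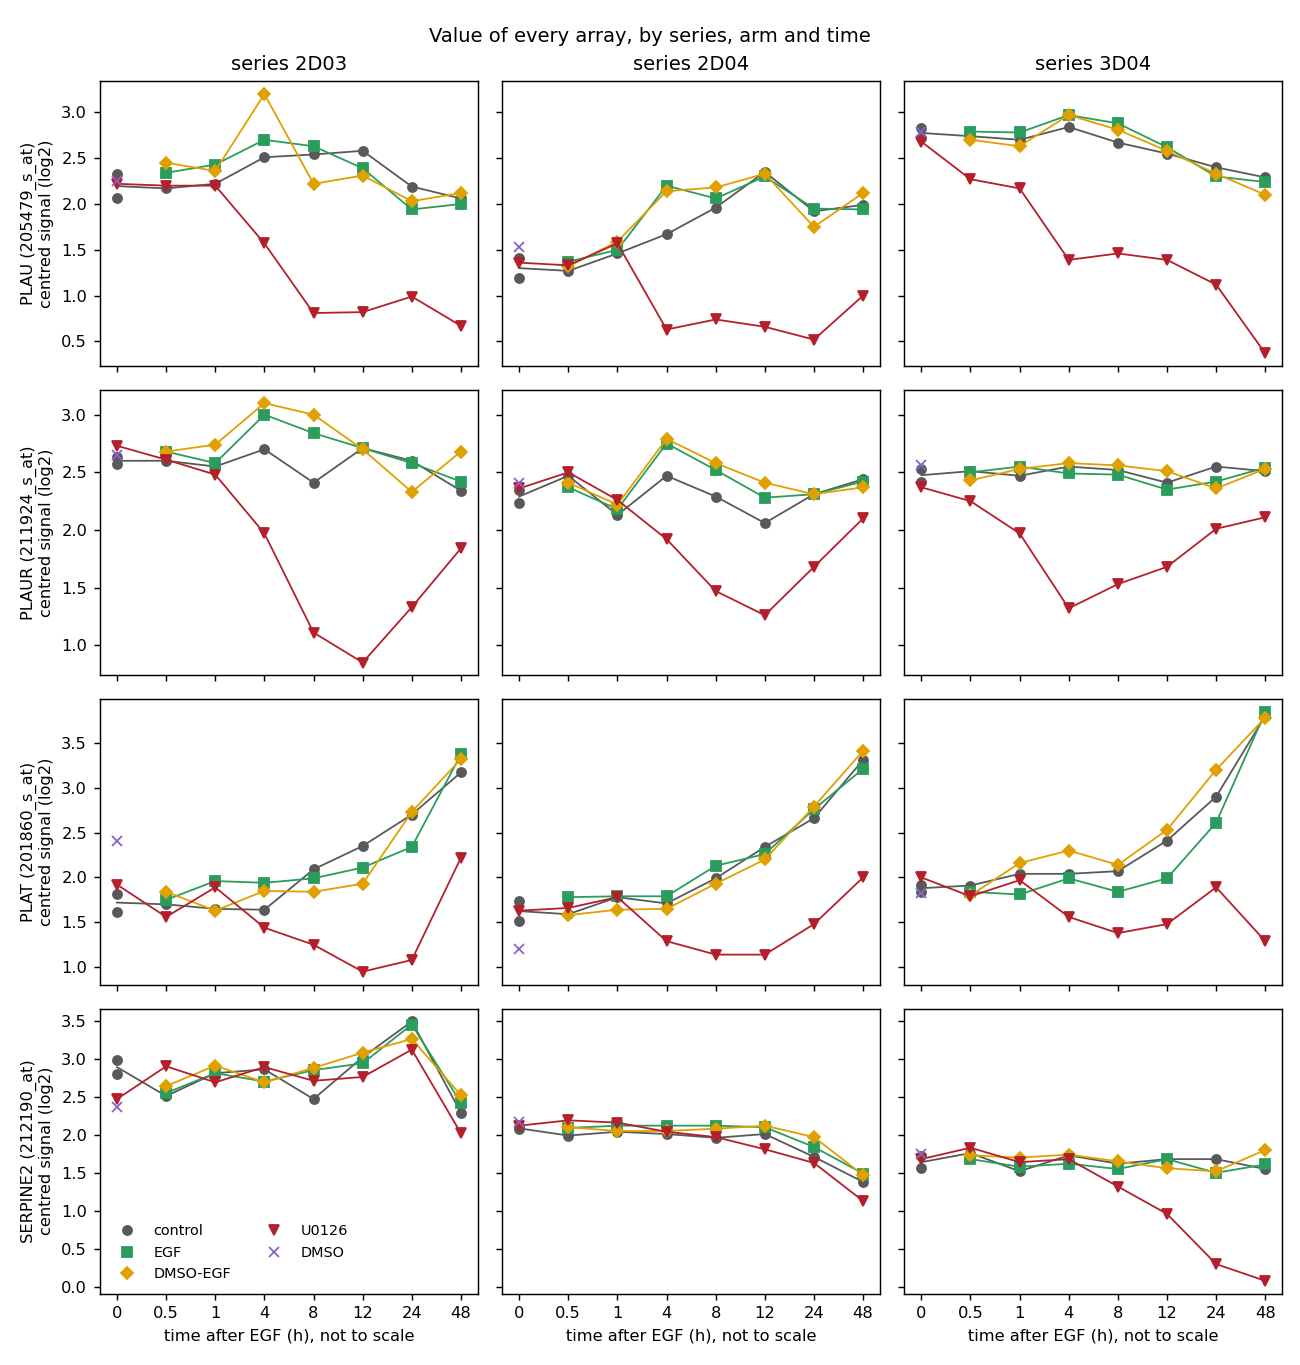
Centred signal (presumed log2) of each array against time after EGF for PLAU, PLAUR (probe set 211924_s_at), PLAT and SERPINE2, 1 row per gene and 1 column per series. Points are single arrays, coloured by arm, and lines join them (at 0 h, the mean of the 2 controls): the U0126 arrays of PLAU leave the other arms from 4 h in all 3 series, PLAT lies between 3.17 and 3.84 in the other arms at 48 h, and SERPINE2 with U0126 reaches 0.08 at 48 h in series 3D04.

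Promoter sequences are shown for PLAU and PLAUR, the protease and its receptor, which had the largest differences of the set in the middle 2D window. They are the 250 bases before each annotated start in RefSeq on build GRCh38.p14, 5' to 3' on the gene's strand. PLAU has 2 starts on the plus strand, with windows at chr10:73910360-73910609 and chr10:73910882-73911131, and the PLAUR window lies on the minus strand at chr19:43670170-43670419. Capitals mark matches to the AP-1 motif TGANTCA, the site bound by FOS and JUN family dimers.
PLAU, start 1: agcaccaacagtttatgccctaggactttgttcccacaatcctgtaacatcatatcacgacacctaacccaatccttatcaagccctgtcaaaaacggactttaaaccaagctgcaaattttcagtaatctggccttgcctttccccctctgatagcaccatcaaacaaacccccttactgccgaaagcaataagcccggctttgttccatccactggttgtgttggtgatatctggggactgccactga
PLAU, start 2: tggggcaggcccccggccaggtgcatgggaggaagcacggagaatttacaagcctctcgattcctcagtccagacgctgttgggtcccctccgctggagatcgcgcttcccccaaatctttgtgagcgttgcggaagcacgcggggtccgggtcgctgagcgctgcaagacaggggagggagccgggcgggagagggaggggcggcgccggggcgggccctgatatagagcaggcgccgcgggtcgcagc
PLAUR: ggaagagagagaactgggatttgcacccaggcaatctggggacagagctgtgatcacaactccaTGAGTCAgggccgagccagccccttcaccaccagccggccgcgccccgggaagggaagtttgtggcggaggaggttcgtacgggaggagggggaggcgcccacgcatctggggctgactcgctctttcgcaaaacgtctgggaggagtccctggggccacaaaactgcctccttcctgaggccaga

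The PLAUR window holds 1 AP-1 match, which begins 186 bases before the start, and neither PLAU window holds one on either strand. Over all 35116 promoter windows of the same length, 6.57% hold the motif TGANTCA. The enhancer known to carry AP-1 and ETS sites of PLAU lies further upstream than these windows. The second PLAU window holds 3 GC boxes (GGGCGG, both strands searched), which 42.6% of windows contain. PLAUR also has 1 match to the EGR motif GCGNGGGCG, at 90 bases before the start, as do 8.41% of windows. The SERPINE2 windows held no AP-1 match. These matches describe letters, and no binding was measured.

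PLAUR fell with U0126 most in the middle window and was closer to the other arms at 24 and 48 h. In the middle 2D window probe set 210845_s_at of PLAUR fell by 1.16 (SE 0.11, 2.24-fold lower, limma adjusted p = 3.4e-10). Probe set 211924_s_at fell by 1.33 (SE 0.13, 2.52-fold lower, limma adjusted p = 2.4e-09). In 3D the same probe sets fell 2.24-fold and 2.06-fold (limma adjusted p = 3.1e-07 and 6.1e-08). In the late window the differences of this pair were -0.67 (SE 0.13) and -0.69 (SE 0.16) in 2D, and -0.42 (SE 0.14) and -0.39 (SE 0.12) in 3D, all called lower.

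The late PLAUR calls did not hold in each series or without each array. A 2D series fitted alone had a mean per arm and window, so its errors also hold change between the times of a window. In series 2D04 alone, none of the 3 PLAUR probe sets passed in the late window: the adjusted p was 0.11 for 210845_s_at, 0.14 for 211924_s_at and 0.059 for 214866_at by limma. In 3D the late call of 210845_s_at was lost without any 1 of its 4 arrays (limma adjusted p = 0.065 to 0.14), as was that of 214866_at (0.055 to 0.2). That of 211924_s_at was lost without the U0126 array at 24 h (0.079) or the DMSO-EGF array at 48 h (0.14).

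Array by array, PLAUR with U0126 went through a low point and partly returned. In series 2D03 probe set 211924_s_at read 2.61, 2.48, 1.97, 1.11, 0.85, 1.33 and 1.84 with U0126 from 0.5 to 48 h, against 2.68, 2.74, 3.10, 3.00, 2.70, 2.33 and 2.68 with DMSO-EGF. In series 2D04 it read 2.50, 2.26, 1.92, 1.47, 1.26, 1.68 and 2.10 with U0126, against 2.41, 2.22, 2.79, 2.58, 2.41, 2.31 and 2.37. In series 3D04 it read 2.25, 1.97, 1.32, 1.53, 1.68, 2.01 and 2.11 with U0126, against 2.43, 2.53, 2.58, 2.56, 2.51, 2.36 and 2.53. The lowest U0126 array for this PLAUR probe set was thus at 12 h in both 2D series and at 4 h in series 3D04. In series 2D03 the low U0126 arrays at 8 and 12 h are the pair with the low actin ratio. A test of late against middle differences in 2D gave 0.65 for 211924_s_at (SE 0.21, limma adjusted p = 0.11) and 0.49 for 210845_s_at (SE 0.17, limma adjusted p = 0.15). With the series as a replicate block, limma called both (adjusted p = 0.0092 and 0.012). Of all probe sets, 1.78% were called in this comparison without the block and 8.15% with it.

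The third PLAUR probe set, 214866_at, had a different course. In the middle window it differed by -0.24 in 2D (SE 0.16, limma adjusted p = 0.48) and fell by 0.41 in 3D (SE 0.10, limma adjusted p = 0.013). That 3D call was lost after quantile normalization (0.067), without the U0126 array at 12 h (0.1) and without the DMSO-EGF array at 12 h (0.067). In the late 2D window it fell by 0.89 (SE 0.19, 1.86-fold lower, limma adjusted p = 0.0014), more than the other PLAUR probe sets in its point estimate. The U0126 array of series 2D03 at 24 h read 0.06 for it, against 1.91 with DMSO-EGF, while in series 2D04 the values were 0.76 and 1.36. Over the 21 differences by series and time, 210845_s_at and 211924_s_at had a Pearson correlation of 0.92, and 214866_at had 0.21 and 0.20 with them. These points share arrays and arms and are a description only. The late minus middle difference of 214866_at in 2D was -0.66 (SE 0.25, limma adjusted p = 0.22, and 0.012 with the replicate block).

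PLAT, the tissue activator, rose over time in untreated cells, and with U0126 its values stayed below those of the other arms from 4 h on. In control cells PLAT rose by 1.29 from 0 h to the late window in 2D (SE 0.14, 2.44-fold, limma adjusted p = 3.2e-07) and by 1.47 in 3D (SE 0.29, 2.77-fold, limma adjusted p = 0.0067). Of all probe sets, 1.92% rose in this comparison in 2D and 3.97% in 3D. In 3D without the 48 h control array the PLAT difference was 1.02 (limma adjusted p = 0.27), and leaving out either 0 h control also lost the call (0.076 and 0.068). In series 2D03 alone it was 1.22 (limma adjusted p = 0.1). No other urokinase system probe set was called between the late controls and 0 h in either culture, where 3.62% of all probe sets were called in 2D and 6.85% in 3D. In series 2D04 alone, PLAU (0.66, limma adjusted p = 0.025) and SERPINE2 (-0.54, limma adjusted p = 0.033) were called too, and after quantile normalization so was PLAU in 3D (-0.76, limma adjusted p = 0.014).

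PLAT was not called in the early window, with differences of 0.05 in 2D (SE 0.14) and -0.10 in 3D (SE 0.29) for U0126 against DMSO-EGF. In the middle window it fell 1.62-fold in 2D (-0.70, SE 0.12, limma adjusted p = 8.3e-05) and 1.80-fold in 3D (-0.85, SE 0.24, limma adjusted p = 0.026). In the late window it fell 2.58-fold in 2D (-1.37, SE 0.14, limma adjusted p = 5.6e-09) and 3.73-fold in 3D (-1.90, SE 0.29, limma adjusted p = 1.9e-05). The late 2D difference was more negative than the early one by -1.42 (SE 0.20, limma adjusted p = 1.4e-05), the 1 call of 6 where 3.35% of all probe sets were called. With the series as a replicate block, 5 of 6 were called, among 10.8% of all probe sets: PLAU differed by -1.11 (limma adjusted p = 0.0044), and the 3 PLAUR probe sets by -0.57, -0.64 and -0.82 (limma adjusted p = 0.0024 to 0.016). In series 2D03 alone, fitted with the times of a window as repeats, that PLAT value was -1.37 (SE 0.44) and was not called (limma adjusted p = 0.17). In series 2D04 alone it was -1.47 (SE 0.34) and was called (limma adjusted p = 0.012). The late PLAT difference in 2D was also more negative than the middle one, by less (-0.67, SE 0.18, limma adjusted p = 0.047). That call was lost in series 2D03 alone (-0.715, SE 0.40, limma adjusted p = 0.4) and in series 2D04 alone (-0.62, SE 0.31, limma adjusted p = 0.37). The estimates were close to the main one and the errors wider. The call was also lost without the pair with the low actin ratio (0.079) and without most single arrays (0.056 to 0.16). With the replicate block 4 of 6 were called for late minus middle, among 8.15% of all probe sets against 1.78% without it. The added calls were the 3 PLAUR probe sets described above. PLAT was not called in the middle window in series 2D03 alone (0.093), nor in 3D without the U0126 array at 8 or 12 h or the DMSO-EGF array at 4 or 12 h (0.073 to 0.11).

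In series 2D03 PLAT read 1.56, 1.89, 1.44, 1.25, 0.95, 1.08 and 2.22 with U0126 from 0.5 to 48 h, and 1.84, 1.63, 1.85, 1.84, 1.93, 2.73 and 3.32 with DMSO-EGF. In series 2D04 it read 1.66, 1.78, 1.29, 1.14, 1.14, 1.48 and 2.00, and 1.58, 1.64, 1.65, 1.93, 2.20, 2.79 and 3.41. In series 3D04 it read 1.79, 1.97, 1.56, 1.38, 1.48, 1.89 and 1.29, and 1.80, 2.16, 2.30, 2.14, 2.53, 3.20 and 3.78. At 48 h PLAT with U0126 was higher than at 24 h in both 2D series and lower in series 3D04. Over 4 to 48 h the PLAT ranges of the U0126 and other arms overlapped in all 3 series. The lowest PLAT arrays of the other arms read 1.64, 1.65 and 1.84 in series 2D03, 2D04 and 3D04, and the highest U0126 arrays 2.22, 2.00 and 1.89. At 0 h, before EGF, the single DMSO arrays of PLAT lay apart in 2D, at 2.41 in series 2D03 and 1.20 in series 2D04, against control means of 1.72 and 1.63.

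SERPINE2, the serpin of the set that was measured, changed with U0126 in 3D culture at late times. In the late 3D window it fell by 1.47 (SE 0.15, 2.77-fold lower, limma adjusted p = 9.3e-08). In the late 2D window the difference was -0.33 (SE 0.42, 95% interval -1.19 to 0.53, limma adjusted p = 0.79). The late difference was more negative in 3D than in 2D, by -1.14 (SE 0.16, limma adjusted p = 3e-06), and 9.1% of all probe sets were called in that comparison of cultures. In the middle window SERPINE2 differed by -0.12 in 2D (SE 0.35) and -0.33 in 3D (SE 0.13, limma adjusted p = 0.12). The latter passed without the U0126 array at 4 h (-0.51, limma adjusted p = 0.004).

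In series 3D04 the SERPINE2 values with U0126 were below those of all other arms from 8 h. They read 1.83, 1.64, 1.68, 1.32, 0.96, 0.30 and 0.08 with U0126 from 0.5 to 48 h, and 1.73, 1.70, 1.74, 1.65, 1.56, 1.52 and 1.80 with DMSO-EGF. In series 2D03 it read 2.90, 2.69, 2.89, 2.71, 2.76, 3.12 and 2.02 with U0126, and 2.64, 2.91, 2.69, 2.88, 3.08, 3.26 and 2.52 with DMSO-EGF. In series 2D04 it read 2.19, 2.16, 2.04, 1.97, 1.81, 1.63 and 1.13 with U0126, and 2.10, 2.05, 2.05, 2.08, 2.12, 1.97 and 1.47 with DMSO-EGF. From 12 h on, all 6 differences of SERPINE2 in 2D were below 0, between -0.50 and -0.14. The wide error in 2D goes with the distance between the series, whose means for SERPINE2 were 2.78 in 2D03 and 1.94 in 2D04. With the series as a replicate block the late 2D difference kept its size with an SE of 0.16 and was not called (limma adjusted p = 0.17).

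Counted together, 0 of the 6 urokinase system probe sets were called in the early 2D window, where 0.00893% of all probe sets were and none of the 6 had an unadjusted limma p below 0.05. In the middle 2D window 4 of 6 were called, all lower, against 6.46% of all probe sets called in either direction and 4.68% called lower. In the late 2D window 5 of 6 were called lower, against 10.3% called and 4.99% lower. In 3D the counts were 0 of 6 early (0.21% of all probe sets called, and 3 of the 6, PLAU and 2 of PLAUR, at an unadjusted limma p below 0.05), 5 of 6 lower in the middle window (7.93% called, 4.29% lower) and 6 of 6 lower in the late window (29.7% called, 13.6% lower). In 3D, counts fell to as few as 3 in the middle window, without the U0126 or the DMSO-EGF array at 12 h. In the late 3D window they fell to 3 without the U0126 array at 24 h or the DMSO-EGF array at 48 h. In series 2D04 alone 2 of 6, PLAU and PLAT, were called in the late window. The genes were chosen with earlier results of these data known, so the counts beside the shares of all probe sets are a description only. Beside the late 3D counts, 6 of 21 probe sets of basal and mesenchymal line markers were lower and 1 higher, and of 21 luminal marker probe sets 1 was lower and 3 higher. Their part in the result was not tested.

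The median difference of the 6 probe sets was -0.93 in the middle and -0.79 in the late 2D window, and -0.95 in both 3D windows. Over all probe sets the medians were 0.01, 0.01, 0.00 and 0.03. The choice of the genes limits this comparison in the same way. From 4 h, PLAU, PLAT and the PLAUR probe sets 210845_s_at and 211924_s_at were below DMSO-EGF at all 15 series and times. This was so for 3.62% of all probe sets. PLAUR 214866_at and SERPINE2 were below it at 14 of 15.

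**Figure D2:**
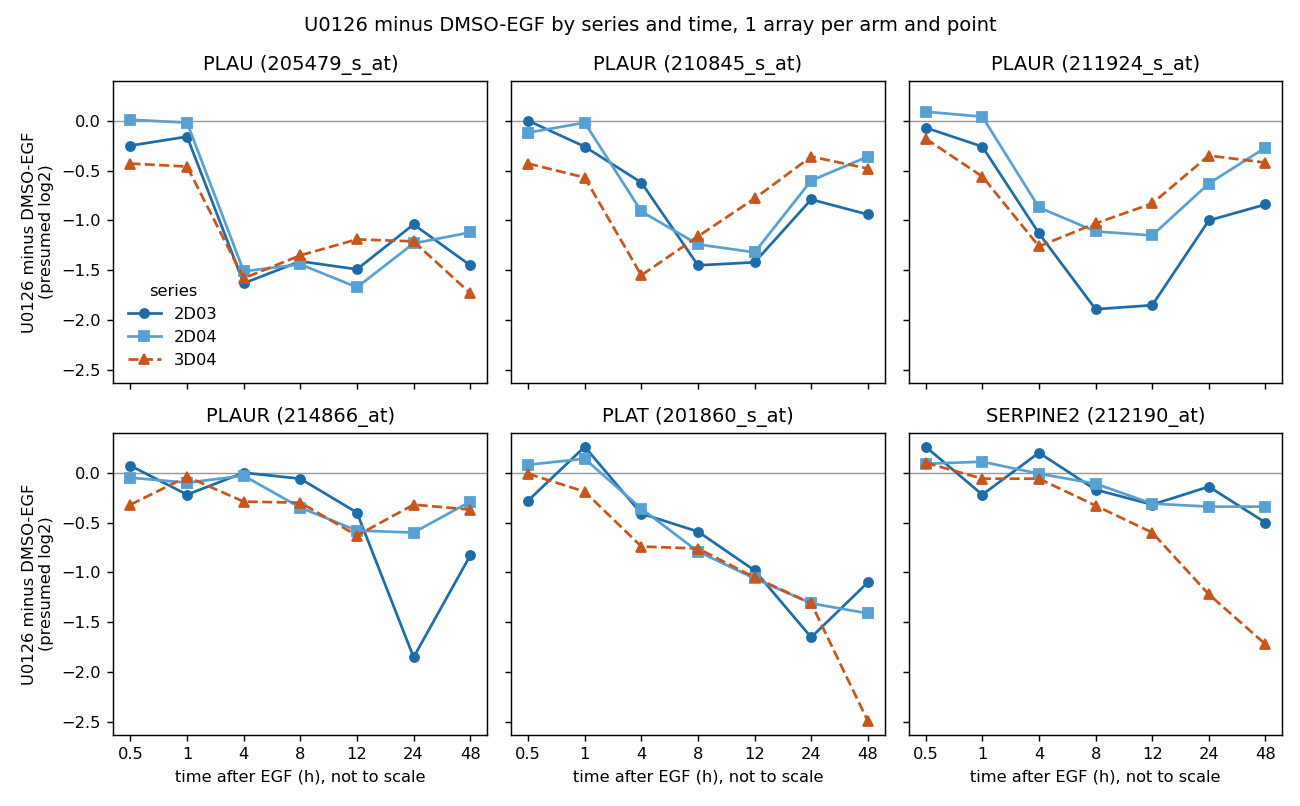
Difference between the U0126 and DMSO-EGF arrays (presumed log2) against time after EGF, 1 panel per probe set and 1 line per series, with 1 array per arm at each point. PLAU is lower by 1.04 to 1.73 at every point from 4 h, the first 2 PLAUR probe sets are closer to 0 at 24 and 48 h than at 8 h, and SERPINE2 reaches -1.72 at 48 h in series 3D04 only.

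**Figure D3:**
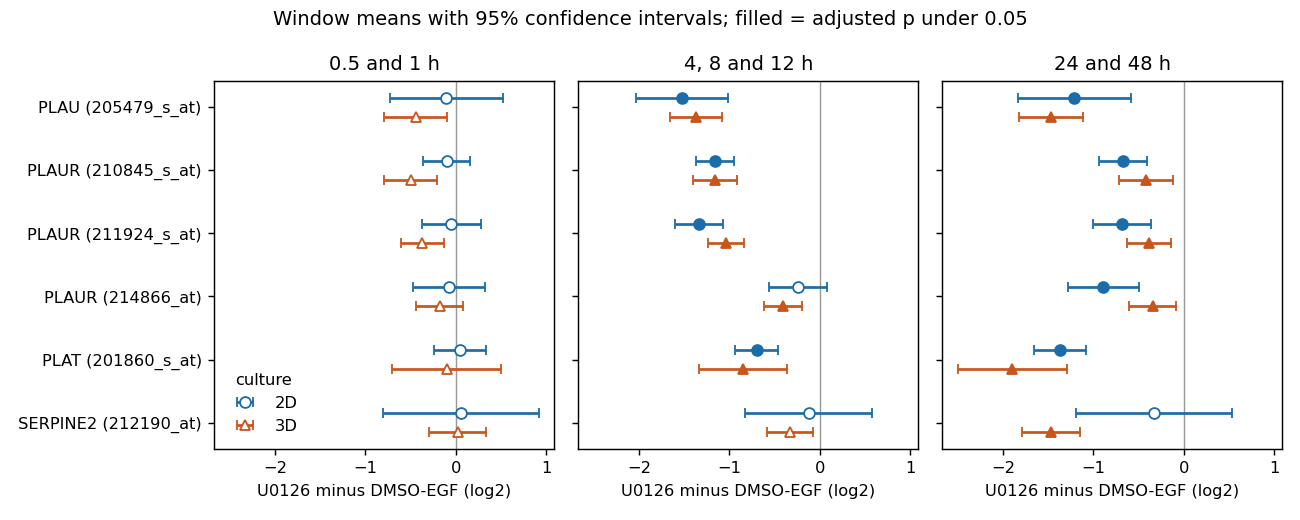
Mean U0126 minus DMSO-EGF difference (log2) of each probe set in the early, middle and late windows, in 2D (circles) and 3D (triangles), with 95% confidence intervals of the limma fits. Filled symbols passed an adjusted p of 0.05: none early, 4 in 2D and 5 in 3D in the middle window, and 5 in 2D and 6 in 3D in the late window.

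The effect of U0126 on PLAU, PLAUR and PLAT was not called different between cultures. In the test of 3D against 2D differences, 0 of 6 probe sets were called in the early window (0.0536% of all) and 0 in the middle window (2.84% of all), with 1 and 0 at an unadjusted limma p below 0.05. The middle count was 1 without the 2D U0126 array of repeat 1 at 4 h (PLAUR 211924_s_at, 0.42, limma adjusted p = 0.027). In the late window SERPINE2 was the 1 probe set called. The 95% interval of the late 3D minus 2D difference was -0.66 to 0.14 for PLAU and -1.07 to 0.01 for PLAT. For PLAUR 211924_s_at it was -0.08 to 0.68. PLAUR 214866_at was nearest to a call, at 0.55 (SE 0.19, limma adjusted p = 0.061), and passed when the least variable 25% of probe sets were left out (0.049) and without any 1 of 3 arrays of 2D at 48 h (0.00095 to 0.03). Without the 3D U0126 array at 24 h the late PLAT difference between cultures was -1.28 (limma adjusted p = 0.0002), against -0.53 (SE 0.27, limma adjusted p = 0.26) with all arrays. Without the 3D U0126 array at 48 h it was 0.22 (limma adjusted p = 0.78), with the opposite sign. Culture and series cannot be told apart here, since 3D culture was only series 3D04.

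The 2D series differed in 1 of 6 probe sets in the middle window, where 9.24% of all probe sets were called. PLAUR 211924_s_at was less reduced in series 2D04 than in series 2D03, by 0.58 (SE 0.18, limma adjusted p = 0.029). Without the U0126 arrays of series 2D03 at 8 and 12 h, the pair with the low actin ratio, that difference was 0.06 (limma adjusted p = 0.94). It was not called without any of 7 single arrays either (limma adjusted p = 0.052 to 0.22), nor after quantile normalization (0.18). No probe set was called in the early window (0% of all, with 679 at an unadjusted p below 0.05 by limma) or in the late one (0.277%, with 2 of the 6 at an unadjusted p below 0.05). The largest late difference was that of PLAUR 214866_at (0.90, SE 0.22, limma adjusted p = 0.056). It was called after quantile normalization (0.044), without the least variable 25% of probe sets, without the pair with the low actin ratio (0.043) and without any 1 of 3 late arrays (0.00023 to 0.018). Leaving out 1 array moved it between 0.43 (without the U0126 array of series 2D03 at 24 h) and 1.36 (without the U0126 array of series 2D03 at 48 h).

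EGF alone and the DMSO solvent were the background for these comparisons. EGF against control called 0 of 6 probe sets in any window of either culture, and 0% of all probe sets. By limma, 145, 474 and 146 probe sets had an unadjusted p below 0.05 in the 2D windows, and 515, 466 and 479 in the 3D windows. The largest of the urokinase system differences with EGF was that of PLAUR 211924_s_at in the middle 2D window, at 0.24 (SE 0.13, 95% interval -0.02 to 0.51). On single arrays PLAUR 211924_s_at at 4 h was 3.00 with EGF and 2.70 without in series 2D03, 2.75 and 2.47 in series 2D04, and 2.49 and 2.55 in series 3D04. DMSO-EGF against EGF likewise called 0 of 6 and 0% of all, with 155, 233 and 243 probe sets at an unadjusted p below 0.05 in 2D and 498, 626 and 338 in 3D by limma. Its largest urokinase system difference was 0.38 for PLAT in the middle 3D window (SE 0.24, 95% interval -0.11 to 0.88). After the pre-treatment alone, at 0 h in 2D, U0126 against DMSO called 0 of 6 and 0% of all, with 192 at an unadjusted p below 0.05 by limma.

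In untreated cells PLAU and PLAT were higher in series 3D04 than in the mean of the 2D series and SERPINE2 was lower, among 47.9% of all probe sets called. Culture and series cannot be told apart in this comparison either, and its errors leave out the distance between series. PLAU was 1.56-fold higher (0.64, SE 0.10, limma adjusted p = 1.2e-05) and PLAT higher by 0.25 (SE 0.05, limma adjusted p = 0.00046). SERPINE2 was 1.64-fold lower (-0.71, SE 0.09, limma adjusted p = 2.8e-07). PLAUR 210845_s_at was higher by 0.15 (SE 0.06, limma adjusted p = 0.029), a call lost after quantile normalization (0.06, limma adjusted p = 0.39) and without any of 5 single 3D control arrays (0.055 to 0.065), and its other probe sets were not called. PLAUR 214866_at (0.09, limma adjusted p = 0.098) was called after median centring (0.12, limma adjusted p = 0.035) and without either of 2 control arrays at 0 h, of series 2D04 (0.049) and of series 3D04. The median control value of PLAU was 2.22 in series 2D03, 1.67 in series 2D04 and 2.70 in series 3D04, and that of SERPINE2 was 2.81, 2.01 and 1.68. In the same comparison 15 of 21 probe sets on a list of basal and mesenchymal line markers (which holds VIM, CD44 and EGFR) were lower. Of 20 fibroblast marker probe sets 7 were lower and 2 higher. Among all probe sets 25% were called lower and 22.9% higher. The part of these markers in the differences of PLAU and SERPINE2 was not tested.

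Partners of the urokinase system were read from 5 further lists. Of 28 probe sets for 12 plasminogen receptors and uPAR partners, 0 were called with U0126 in any 2D window. Over all probe sets 0.00893%, 6.46% and 10.3% were called in the early, middle and late 2D windows. In the late 3D window 6 were lower and 1 higher, where 13.6% of all probe sets were lower and 16.2% higher. The list was thus called no more often than all probe sets, of which 29.7% were called. ITGA5, the fibronectin receptor subunit, fell by 0.85 (SE 0.17, limma adjusted p = 0.00044) and ITGB3, a vitronectin receptor subunit, fell by 0.68 (SE 0.17, limma adjusted p = 0.0037). PLGRKT, a plasminogen receptor, fell by 0.66 (limma adjusted p = 1.6e-05), and the integrin subunit ITGAV rose by 0.52 (limma adjusted p = 0.001). The list median was -0.06 in that window, against 0.03 over all probe sets.

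Among 11 probe sets for 7 clearance and uptake receptors, VLDLR, which takes up protease and serpin complexes, fell by 1.06 in the middle 3D window (SE 0.23, limma adjusted p = 0.0034) and by 2.35 in the late one (SE 0.28, 5.1-fold lower, limma adjusted p = 5.6e-07). LRP1, the main receptor for urokinase and serpin complexes, rose by 0.36 in the late 3D window (limma adjusted p = 0.0056), as did LRP2 (0.36, limma adjusted p = 0.031). In 2D the list had 1 call, IGF2R in the middle window (-0.31, limma adjusted p = 0.026), a window with 6.46% of all probe sets called. The list median was 0.09 in the late 3D window, where 29.7% of all probe sets were called, against 7.93% in the middle one.

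Of 15 probe sets for 9 measured proteases that act in the cascade, 1 was called in 2D, factor XII (F12), which fell by 0.47 in the late window (SE 0.12, limma adjusted p = 0.0056). There 10.3% of all probe sets were called. In the late 3D window 3 were lower and 2 higher, where 13.6% of all probe sets were lower and 16.2% higher. The share called in this list was near the 29.7% of all probe sets called. Cathepsin B (CTSB) and matriptase (ST14), which both can activate the urokinase precursor, rose by 0.65 and 0.68 with limma adjusted p = 2.6e-05 and 0.026. F12 fell by 0.58 and cathepsin L (CTSL) by 0.51 (limma adjusted p = 1.9e-05 and 0.00089).

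Among 18 probe sets for 9 other measured clade B serpins, the family of PAI-2, SERPINB8 fell by 1.13 in the middle 3D window (SE 0.14, limma adjusted p = 5.9e-06) and by 1.92 in the late one (SE 0.17, limma adjusted p = 7.8e-09). The pair of probe sets for SERPINB1, an inhibitor of neutrophil proteases, rose in the late window in 2D (0.58 and 0.54) and in 3D (0.62 and 0.72). Of 6 probe sets for 5 measured plasminogen and inhibitor genes, neuroserpin (SERPINI1), an inhibitor of tissue plasminogen activator, rose by 0.87 in the late 2D window (SE 0.29, limma adjusted p = 0.043), and none was called in 3D. The shares of all probe sets called were 10.3% in the late 2D, 7.93% in the middle 3D and 29.7% in the late 3D window. Genes named from each list were called genes with the smallest adjusted p, so they do not show how the rest of a list changed.

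The genes whose 21 U0126 minus DMSO-EGF differences correlated best with those of each urokinase system gene were taken over all named genes. For PLAU they were EPHA2, an ephrin receptor (Pearson correlation 0.93), DUSP5, an ERK phosphatase (0.90), and DNMBP (0.89). For PLAUR, taken by probe set 211924_s_at only, they were IFNGR2 (0.90), CSNK1E (0.89) and IL4R (0.88). PLAT was nearest to CDCP1 (0.95), PLEK2 (0.94) and UCHL3 (0.93), and SERPINE2 to TUBGCP2 (0.95), DKK1, a Wnt antagonist (0.94), and ANXA3 (0.93). Within the set, PLAU had a correlation of 0.73 with PLAUR 211924_s_at and 0.67 with PLAT. PLAT had 0.77 with SERPINE2, and PLAUR 211924_s_at had -0.01 with SERPINE2. The points share DMSO-EGF arrays and time order and carry no test.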

How the data were processed

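The deposited table holds 22930 rows for 96 arrays. RMA is named in the submitters' processing notes, so its values were read as log2 signals. The log base, centring and build are not given in the sources used here. The 524 array controls were left out, 19415 probe sets had 1 symbol, 125 had several and 2866 had none listed. The genes and lists were chosen with earlier results of these data known.

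limma 3.58.1 in R 4.3.3 (lmFit, eBayes with a variance trend) fitted 64 arrays of 2D culture with a mean per arm and time (33 residual degrees of freedom). The 32 arrays of 3D culture had a mean per arm and window, with times as repeats (17). Each 2D series fitted alone was treated in the same way, so errors of these fits include change between the times of a window. The effects in different cultures and series were compared over the 84 later arrays, in a model with terms for series by time (36). Untreated cells were compared over 27 arrays (17). The named genes were the members, up to 4 called genes per list and comparison with the smallest adjusted p, and the 3 genes nearest to each member. The procedure was tested on simulated data. The number of arrays limits the precision.

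Over 465 pairs of 2D groups, deviations of repeats from their group means correlated at 0.197 to 0.790 (median 0.595). The repeat number, which follows the series in the titles, was therefore added as a replicate block in an alternative fit. The main 2D fits had no such term, so their standard errors include the distance between the series. For PLAU in the late 2D window the SE was 0.31 without the block and 0.19 with it. Alternatives were median centring, quantile normalization, a fit without the least variable 25% of probe sets, no variance trend, the replicate block, each 2D series alone and each array left out. A time block in 3D was added after seeing the data.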

Additional observations from a re-analysis of the deposited data

Results flagged for a closer look

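The reduction of SERPINE2 in the late window differed between cultures, by -1.14 (3D minus 2D). The reduction of PLAUR 211924_s_at in the middle window differed between the 2D series, by 0.58 (series 2D04 minus series 2D03). The U0126 minus DMSO-EGF difference of PLAT in 2D differed between times, by -0.67 for late minus middle and by -1.42 for late minus early. Each was called by a limma test of the difference itself. The PLAUR difference was 0.06 without the U0126 pair of arrays with the low actin ratio. In 2D controls at 0 h, a Dixon outlier ratio over 4 arrays set no single array apart for any urokinase system probe set. Each series gave 2 of these arrays, so a distance between the series cannot show in that ratio. PLAU ran from 1.19 to 2.33 over them.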

How the results depend on the processing

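No called difference of a urokinase system probe set changed sign under any alternative run. Differences that were not called did: leaving out 1 array moved 3D minus 2D late to 0.22 for PLAT and 0.05 for PLAU, and the late 2D difference of SERPINE2 to 0.04. Of 2808 comparisons of a single probe set with its value under an alternative, 2710 kept their side of the threshold. With the replicate block, which follows the series and so the pairing of repeats, the count for late minus middle in 2D went from 1 to 4 and that for late minus early from 1 to 5. The block changed no other count. Quantile normalization gave 2 and 5 for this pair, 0 in place of 1 for series 2D04 minus 2D03 in the middle window, 1 in place of 0 in the late window, and 2 in place of 1 for the late 3D controls against 0 h. Without the variance trend late minus early was 2. Without the least variable 25% of probe sets, 3D minus 2D in the late window was 2 and series 2D04 minus 2D03 in the late window was 1.

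Series 2D04 alone called 2 probe sets in the late window with U0126, 0 for late minus middle, 2 for late minus early and 3 for late controls against 0 h, which series 2D03 alone called 0. Without the U0126 repeats 1 at 8 and 12 h, late minus middle was 0, and series 2D04 minus 2D03 was 0 in the middle and 1 in the late window.

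Leaving out each array in turn gave 3 to 6 called probe sets in the middle and 3 to 4 in the late 3D window. It gave 0 to 1 for 3D minus 2D in the middle and 1 to 2 in the late window, and 0 to 1 for series 2D04 minus 2D03 in each of these windows. It gave 0 to 2 for late minus middle, 1 to 2 for late minus early and 0 to 1 for late 3D controls against 0 h, and 3 to 5 for untreated 3D minus 2D. The causes were not tested. In the 2D windows with U0126 the counts stayed at 0, 4 and 5. The number of arrays limits all values, most of all in 3D with 1 array per arm and time.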
